A study of Mus musculus with 2 samples.

Results

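The 10 genes described here belong to the antioxidant response that the transcription factor Nrf2 controls: Nfe2l2, which encodes Nrf2, its inhibitor Keap1, and 8 genes of antioxidant and detoxifying proteins, Nqo1, Hmox1, Gclc, Gclm, Gsr, Txnrd1, Srxn1 and Gsta4. They were chosen by name, as all non-control probes that carry one of these gene names, which gave 17 of the 41174 distinct probes on the array and 10 of its 27572 gene names. RNA came from C2C12 cells, an established mouse myoblast line derived from adult leg muscle of strain C3H, grown subconfluent in growth medium with fetal bovine serum. The knockdown cells stably expressed a short hairpin RNA against Mybbp1a, and the control cells a control hairpin. Per the labels each was a mixture of stable clones. Knockdown RNA was labelled with Cy5 and control RNA with Cy3 on both of 2 two-colour arrays, so there was no dye swap, and an effect of the dyes cannot be told apart from one of the knockdown.

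In unstressed cells Keap1 holds Nrf2 in the cytoplasm as a substrate of a Cul3 ubiquitin ligase, and Nrf2 is degraded. Oxidants or electrophiles modify cysteines of Keap1, Nrf2 then accumulates in the nucleus, pairs with a small Maf protein and binds antioxidant response elements near its target genes. The regulation is thus mainly of the protein, and the Nfe2l2 transcript is not a measure of Nrf2 activity. Among the targets, Gclc and Gclm form the enzyme that starts glutathione synthesis, Gsr and Txnrd1 use NADPH to reduce glutathione and thioredoxin, Srxn1 repairs overoxidised peroxiredoxins, Nqo1 reduces quinones, Hmox1 degrades heme, and Gsta4 conjugates glutathione to products of lipid peroxidation.

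The level of each transcript was read by one or more 60-base oligonucleotides, whose sequences are shown because the results below compare probes of 1 gene that read the same or separate stretches of its RNA. Of these, 3 probes lay across more than 60 bases of the genome on build mm8 and had an open reading frame along the whole probe. These were the probes of Gclm, placed at chr3:122251278-122253913, of Keap1, at chr9:20981250-20981690, and of Gsta4, at chr9:77984049-77985221.
Gclm A_51_P320089: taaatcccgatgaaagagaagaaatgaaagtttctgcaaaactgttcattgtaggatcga
Keap1 A_51_P438666: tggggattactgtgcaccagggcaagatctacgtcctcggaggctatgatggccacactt
Gsta4 A_51_P112223: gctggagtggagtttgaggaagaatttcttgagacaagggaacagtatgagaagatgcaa

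Of the others, 30 of the 60 bases are shown for those whose position bears on a result. Bases in capitals are shared with the other probe of the same gene. The Gsr probes A_52_P91604 (chr8:35163841-35163900, bases 31 to 60) and A_51_P359625 (chr8:35163862-35163921, bases 1 to 30) share 39 bases, while A_52_P346738 (chr8:35163276-35163335, bases 1 to 30) shares none with either. The Srxn1 probes A_52_P593200 (chr2:151800890-151800949, bases 31 to 60) and A_51_P330125 (chr2:151800937-151800996, bases 1 to 30) share 13 bases. Nqo1 was read by 1 probe (chr8:110277669-110277728, bases 1 to 30), and the Nfe2l2 probes A_51_P411271 (chr2:75476553-75476612) and A_52_P1107697 (chr2:75501533-75501592) are shown as the outermost of 4, with their bases 1 to 30. The exon or untranslated region each probe lies in was not determined, since no annotation of mm8 was used here.
Gsr A_52_P91604: TGCATTAAAGTTAGACTTGAGGCTGGTTAG
Gsr A_51_P359625: GGAACAAAGTGCATTAAAGTTAGACTTGAG
Gsr A_52_P346738: gggaggaaccgatcgagtttacgcccagct
Srxn1 A_52_P593200: ctttatgatagcactatATGAACTATGTAC
Srxn1 A_51_P330125: ATGAACTATGTACtaggaagtaaaggaaaa
Nqo1 A_51_P424338: taggtcatttatgcaatattcgccattttc
Nfe2l2 A_51_P411271: ctcaagttaatttcttaggcaccatttggg
Nfe2l2 A_52_P1107697: ggtagagtttggtaatgattaccctgtatt

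Both arrays held 45018 spots, and the share well above background ran from 64.9% to 79.7% over the arrays and dyes. Median spot signals were 329 and 449 for knockdown RNA and 159 and 184 for control RNA. The targeted transcript Mybbp1a, read by 1 probe, had log2 levels of 11.04 and 10.79 in knockdown cells and 12.68 and 12.70 in control cells on arrays 1 and 2, a mean log2 ratio of -1.78 ± 0.19 (SD, n = 2). All 7 markers of skeletal myoblasts that were looked up (Myod1, Myf5, Myog, Des, Cdh15, Itga7 and Chrna1) were well above background in both channels on both arrays. Of the markers of other cells, Pecam1, Tie1 and Ptprc were not well above background in either channel on either array. Cd68, Csf1r, Fabp4 and all 4 neural and Schwann cell markers were in both channels on both arrays. The endothelial Cdh5 and the adipocyte Cidec were on both arrays in knockdown cells, but not on both in control cells. Kdr, Plin1, Adipoq and Adgre1 were on both arrays in neither channel. The log2 of the summed level of the myoblast markers was 17.27 and 17.09 in knockdown cells and 17.30 and 17.09 in control cells. For the neural and Schwann cell markers this sum was 12.72 and 12.95 in knockdown cells and 12.93 and 13.63 in control cells. The sums of the adipocyte, leukocyte and endothelial markers lay between 9.65 and 11.15 in knockdown cells and between 9.35 and 11.12 in control cells. The part of other cell types in the results was not tested, and in bulk RNA fewer cells of a type and less RNA per cell cannot be told apart. The arrays are described as biological replicates, but nothing says that they came from separate clone pools or cultures. The p-values thus rest only on the spread between these 2 arrays, which may be technical. For each probe limma also drew that spread toward the spread typical of all tested probes.

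With 2 arrays no probe passed the test. Limma gave 0% of 27006 tested probes an adjusted p below 0.05, and the lowest was 0.137. At an unadjusted limma p under 0.05 there were 2576 genes higher and 1457 lower of 18064, and median centring in place of loess called 4482 probes. All 17 member probes were well above background in both channels on both arrays, none was saturated, and all were tested. With each gene represented by its brightest probe, 1 of the 10 genes was higher in the knockdown cells on both arrays (Hmox1), against 40.6% of the 18064 tested genes. A further 5 were lower on both (Gclm, Nqo1, Gsr, Srxn1 and Keap1), against 29.4% of all genes. The remaining 4 had ratios of opposite sign (Nfe2l2, Gclc, Txnrd1 and Gsta4), against 30% of all genes. At an unadjusted limma p under 0.05, 3 of the 10 were lower (Gclm, Nqo1 and Gsr), against 8.07% of all genes, and none was higher, against 14.3%. The 10 genes had a median log2 ratio of -0.26 (-0.10 on array 1, -0.47 on array 2), whereas that of all tested genes was 0.03. Counted by probe, 4 of 17 were higher on both arrays, against 37.9% of all tested probes, and 8 were lower on both, against 32.1%.

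**Figure D1:**
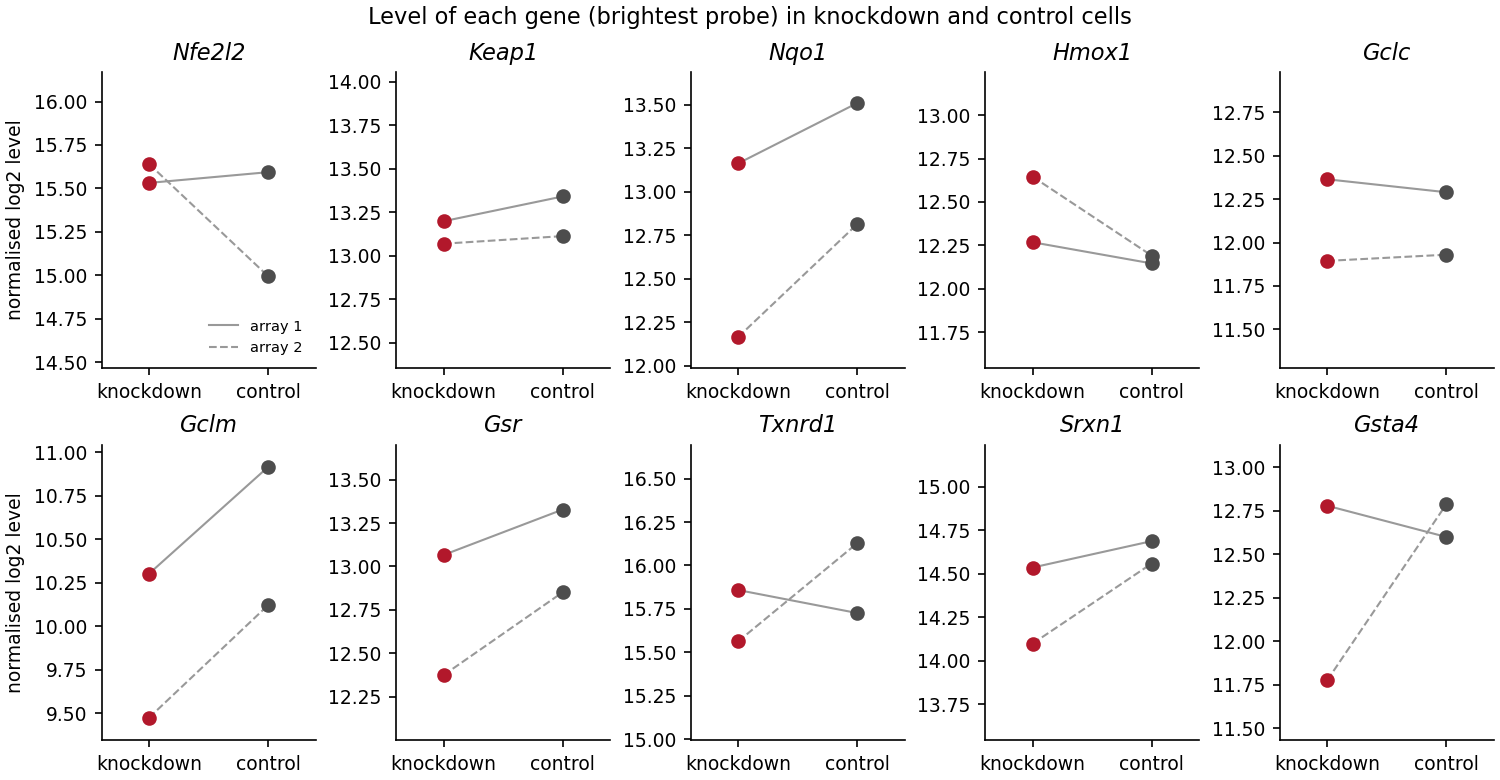
Normalised log2 level (y axis) of the brightest probe of each gene in knockdown and control cells. Each point is 1 sample, lines join the 2 samples of 1 array (solid, array 1; dashed, array 2), and every panel spans the same range, so slopes can be compared between panels. For Nqo1, Gclm, Gsr, Srxn1 and Keap1 both lines run upward to the control.

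The transcript of Nrf2 itself was not called after loess, but median centring called it as higher (0.75, adjusted p 0.0399). Its brightest probe, A_51_P411271, had log2 levels of 15.53 and 15.64 in knockdown cells, against 15.59 and 15.00 in control cells. The difference thus lay on array 2, where the log2 ratio was 0.64, while array 1 gave -0.06. The mean was 0.29 ± 0.50 (SD, n = 2), with a limma 95% interval from -0.28 to 0.86 and an adjusted p of 0.452. The other Nfe2l2 probes were above 0 on both arrays: A_52_P396436 read 0.08 and 0.59, A_52_P1107697 read 0.13 and 0.75, and A_52_P523835 read 0.14 and 0.40. All 4 probes were therefore higher in knockdown cells on array 2, and their means lay between 0.27 and 0.44. The array lists A_52_P1107697 and A_52_P523835 under other transcript records than A_51_P411271 and A_52_P396436, and whether they read the same RNA was not tested. A_52_P523835 was also dim, with levels of 7.77 and 7.50 in knockdown cells and 7.63 and 7.10 in control cells. Keap1, the adaptor that presents Nrf2 for degradation, had levels of 13.20 and 13.07 in knockdown cells and 13.34 and 13.11 in control cells. Both ratios were small, -0.14 and -0.04, with a mean of -0.09 ± 0.07, an interval from -0.34 to 0.16 and an adjusted p of 0.578. Under median centring Keap1 stood at 0.22.

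The lowest mean ratio and the smallest p among the 10 genes were those of the modifier subunit of glutamate-cysteine ligase, Gclm, which raises the catalytic efficiency of the enzyme. Its levels were 10.30 and 9.47 in knockdown cells and 10.92 and 10.12 in control cells. The levels of both kinds of cell differed between the arrays, but the knockdown sample was the lower one on each, by nearly the same amount. Array 1 gave a log2 ratio of -0.61 and array 2 one of -0.65. Their mean was -0.63 ± 0.02 (SD, n = 2), 1.55-fold lower in knockdown cells, with an interval from -0.87 to -0.39. The limma p was 0.0021 unadjusted and 0.153 adjusted, so the gene was not called. The catalytic subunit Gclc lay near 0. It had 12.36 and 11.89 in knockdown cells and 12.29 and 11.93 in control cells, with ratios of 0.07 and -0.04, a mean of 0.02 ± 0.08, an interval from -0.23 to 0.27 and an adjusted p of 0.919. Those 2 intervals do not overlap; the difference between the subunits was not itself tested.

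Gsr, glutathione reductase, returns oxidised glutathione to its reduced form. Its brightest probe read 13.07 and 12.38 in knockdown cells and 13.33 and 12.85 in control cells, so the knockdown sample was the lower on each array. The log2 ratios were -0.26 and -0.48, a mean of -0.37 ± 0.15, with an interval from -0.65 to -0.08 and an adjusted p of 0.184. The probe A_52_P91604, which shares bases with it, gave -0.40 and -0.54. The probe A_52_P346738, which reads a separate stretch, gave -0.41 and -0.69. All 3 probes were thus lower in knockdown cells on both arrays, with means from -0.55 to -0.37, and all had an unadjusted limma p under 0.05.

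Nqo1, the quinone reductase that is often used as a readout of Nrf2 activity, had levels of 13.16 and 12.16 in knockdown cells and 13.51 and 12.81 in control cells. It was lower in the knockdown sample of each array, with log2 ratios of -0.35 and -0.65. The mean was -0.50 ± 0.21 (SD, n = 2), 1.41-fold lower in knockdown cells, with an interval from -0.82 to -0.17 and a limma p of 0.0136 unadjusted and 0.168 adjusted. Hmox1, heme oxygenase 1, which the repressor Bach1 also controls, had ratios above 0. It read 12.27 and 12.65 in knockdown cells and 12.15 and 12.19 in control cells, so the knockdown sample was the higher on each array. The log2 ratios were 0.12 and 0.45, a mean of 0.29 ± 0.23, with an interval from -0.05 to 0.63 and an adjusted p of 0.273.

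**Figure D2:**
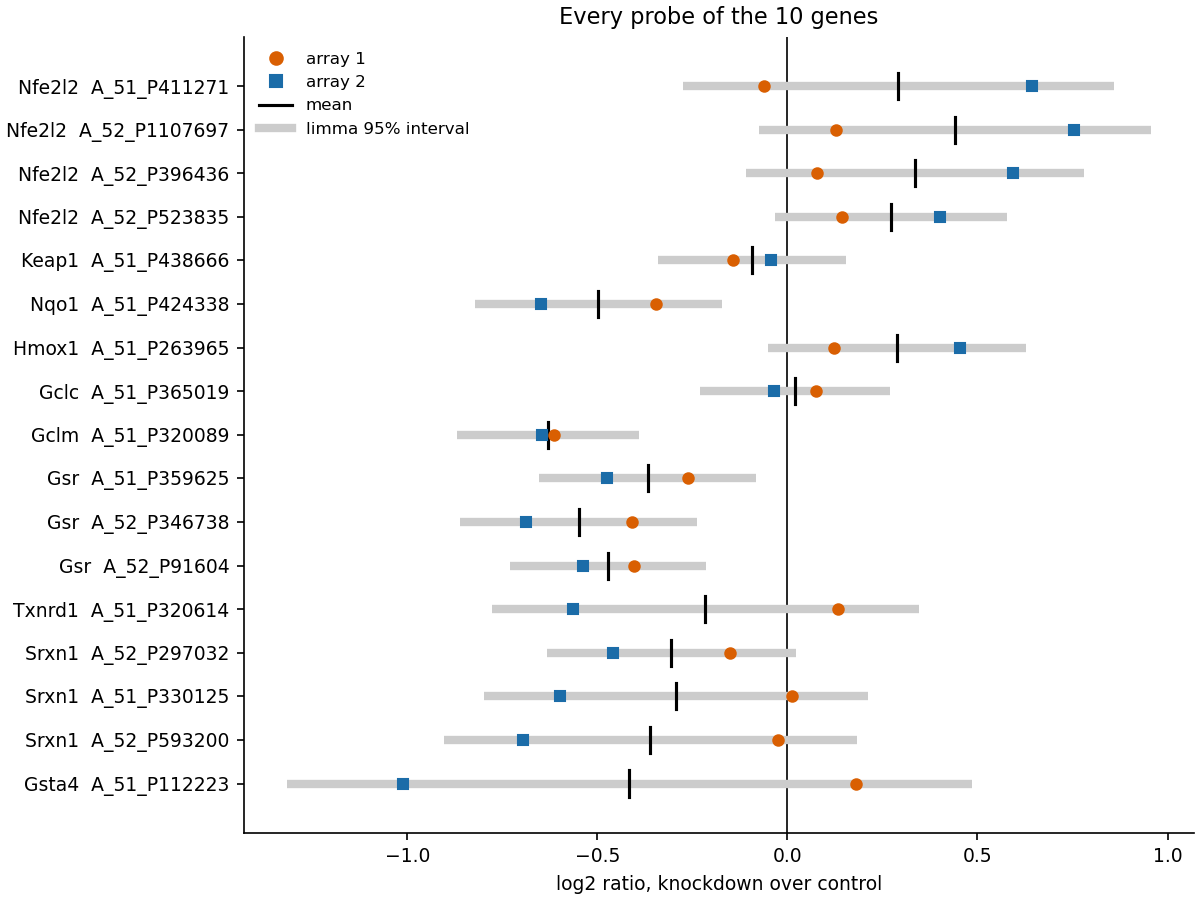
Log2 ratio of knockdown over control (x axis) for each of the 17 probes, grouped by gene. Circles are array 1, squares array 2, black bars their mean and grey bands the limma 95% interval; the bands of Nqo1, Gclm and the 3 Gsr probes lie below 0, and the other bands include 0.

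In the thioredoxin branch the log2 ratios of the 2 arrays lay 0.31 apart for Srxn1, by its brightest probe, and 0.70 apart for Txnrd1. Srxn1, sulfiredoxin, had levels of 14.53 and 14.10 in knockdown cells and 14.69 and 14.56 in control cells by its brightest probe, A_52_P297032. The log2 ratios were -0.15 and -0.46, a mean of -0.31 ± 0.22, with an interval from -0.63 to 0.02 and an adjusted p of 0.244; under median centring the mean was 0.08. The other probes gave -0.03 and -0.70 (A_52_P593200) and 0.01 and -0.60 (A_51_P330125). All 3 Srxn1 probes were thus lower in knockdown cells on array 2, and on array 1 only the brightest read below -0.1. Txnrd1, the cytosolic thioredoxin reductase, had 15.86 and 15.56 in knockdown cells and 15.73 and 16.13 in control cells. Array 1 gave a ratio of 0.13 and array 2 one of -0.56. The mean was -0.22 ± 0.49, with an interval from -0.78 to 0.35 and an adjusted p of 0.567, and median centring put it at 0.27.

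Gsta4 had the widest gap between the arrays of the 10 genes, and its probe was printed 10 times on each array, so spot noise can be set beside it. Levels were 12.78 and 11.78 in knockdown cells, against 12.60 and 12.79 in control cells. The knockdown sample of array 2 was the one that stood apart. The 10 spots had log2 ratios from 0.10 to 0.28 on array 1 (SD 0.05) and from -1.05 to -0.97 on array 2 (SD 0.03). The array means of 0.18 and -1.01 thus differed by 1.19, far more than the spread between spots, and the spots of the 2 arrays did not overlap. The mean over arrays was -0.42 ± 0.84 (SD, n = 2), with an adjusted p of 0.497. The spots of 1 array share its RNA and labelling, and so are not replicates of the cells.

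**Figure D3:**
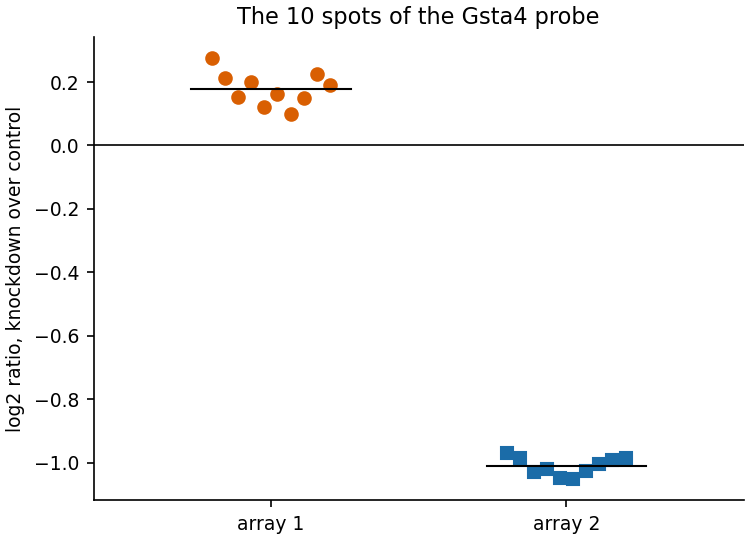
Log2 ratio of knockdown over control (y axis) at each of the 10 spots of the Gsta4 probe on array 1 (circles) and array 2 (squares), with black lines at the means of 0.18 and -1.01. Spots of 1 array lie close together on opposite sides of 0 from those of the other.

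Across the 10 genes the gap between the log2 ratios of the 2 arrays had a median of 0.31, against 0.15 for all tested genes. It was smallest for Gclm, at 0.03, and largest for Gsta4, at 1.19, followed by Nfe2l2 at 0.71 and Txnrd1 at 0.70.

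The direction of several genes depended on the normalization within the array. Loess removes a trend of the ratio with brightness, whereas median centring does not, and median centring put the median over all tested genes at 0.21 in place of 0.03. The 10 genes then had a median of 0.15, still below that of all genes, with 4 higher on both arrays, against 65.5% of all genes, and 1 lower on both, against 12.1%. Gclm was that 1 gene, with a mean of -0.38. Nqo1 had a mean of -0.19 and Gsr one of -0.06, each with arrays of opposite sign. Srxn1 went to 0.08, Keap1 to 0.22 and Txnrd1 to 0.27. Of the 10 genes, median centring called Nfe2l2 and Hmox1 (0.57, adjusted p 0.0417) as higher, where limma called 19.5% of all tested genes. Feature Extraction's own processed signals gave every member the sign that loess gave, with Gclm at -0.69, Nqo1 at -0.47 and Gsr at -0.34.

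**Figure D4:**
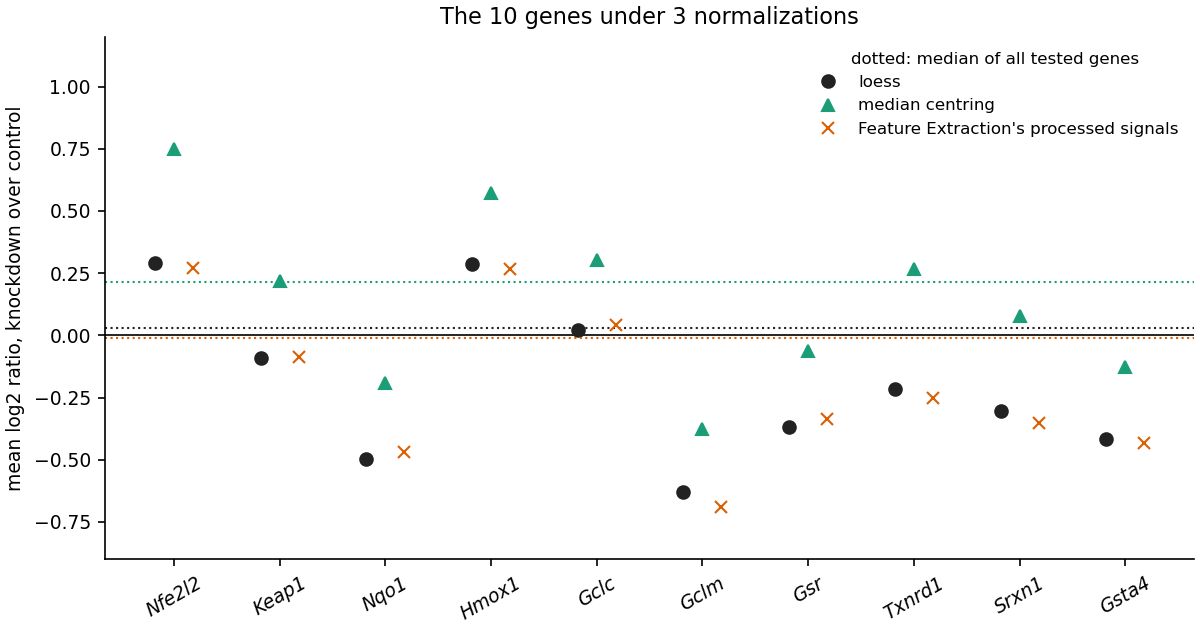
Mean log2 ratio of knockdown over control (y axis) of the 10 genes under loess (circles), median centring (triangles) and Feature Extraction's processed signals (crosses), with the median of all tested genes under each as a dotted line. Gclm, Nqo1, Gsr and Gsta4 lie below 0 under all 3, whereas Keap1, Txnrd1 and Srxn1 lie above 0 under median centring alone.

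The antioxidant response element was searched for as TGACNNNGC, the core to which Nrf2 and a small Maf bind, on both strands of windows from 250 bases before to 50 bases after the annotated start (RefSeq, build GRCm38.p6). Windows were found for 6 of the genes, 8 windows in all. The core was present for Nfe2l2, Gclm, Srxn1 and 1 of the 3 starts of Txnrd1, that is in 4 of 8 windows, and in neither Keap1 nor Nqo1. Of all 32851 windows 12.4% held it. The stretches are shown because they hold the searched letters, which the capitals mark; for Gclm, Srxn1 and Txnrd1 it reads on the opposite strand. They lie at chr2:75704884-75704913 on the minus strand for Nfe2l2, and on the plus strand at chr3:122245413-122245442 for Gclm, chr2:152105542-152105571 for Srxn1 and chr10:82859104-82859133 for Txnrd1. The match begins 240 bases before the start in Nfe2l2, 134 in Gclm and 92 in Txnrd1, and after the start in Srxn1. A match of these letters is not evidence of binding, and functional elements can lie outside these windows.
Nfe2l2: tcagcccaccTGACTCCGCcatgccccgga
Gclm: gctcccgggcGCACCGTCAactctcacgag
Srxn1: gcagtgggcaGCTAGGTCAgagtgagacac
Txnrd1: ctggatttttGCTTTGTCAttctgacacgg

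The wider pathway was followed over 80 further genes in 7 groups. Of these, 74 were tested and limma called none after loess. At an unadjusted p under 0.05, 20 were higher and 6 lower, against 14.3% and 8.07% of all tested genes. After median centring limma called 28 as higher and 1 as lower, against 19.5% of all genes called in either direction. On both arrays 31 of the 74 were higher, against 40.6% of all tested genes, and 24 were lower, against 29.4%. Their median was 0.00447. Group medians ran from -0.10 to 0.39. Partners and regulators of Nrf2 had -0.10 over 10 genes, with 6 lower on both arrays and none higher, but under median centring 8 were higher on both, against 65.5% of all genes, and their median was 0.26. Bach1, the repressor that competes with Nrf2 at the Hmox1 gene, had -0.06 and -0.08 (adjusted p 0.669) and 0.20 under median centring. Sqstm1, the autophagy receptor that can sequester Keap1, had -0.06 and 0.17 (adjusted p 0.783). Its mean was -0.10 with Feature Extraction's processed signals, whereas median centring put it at 0.60 and called it as higher (adjusted p 0.0318).

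The cystine transporter Slc7a11 was also lower on both arrays. Slc7a11, the transporter subunit that brings in cystine for glutathione synthesis, was dim, with log2 levels of 7.50 and 7.57 in knockdown cells and 8.05 and 8.22 in control cells. The knockdown sample was the lower on each array, with log2 ratios of -0.56 and -0.65, a mean of -0.60 ± 0.07 and an adjusted p of 0.153. Its 2 other tested probes had means of -0.94 and -0.29. Median centring gave a mean of -0.55 and called it as lower (adjusted p 0.0361), and Feature Extraction's processed signals gave -1.02. Slc3a2, the heavy chain of the same transporter, had -0.24 and -0.25 (adjusted p 0.222), and was above 0 on both arrays under median centring. Gss, the second enzyme of glutathione synthesis, had ratios of 0.06 and -0.38.

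The glutathione transferases attach glutathione to electrophiles. Of the 16 tested in the wider list, a subset taken by name after its values were seen, 10 were higher on both arrays, against 40.6% of all tested genes, and 3 lower, against 29.4%, with a median of 0.38. Under median centring 10 were higher, against 65.5% of all genes, and 3 lower, against 12.1%, with Gstm4 among the lower in place of Gsto1. Gstm1 had log2 ratios of 0.56 and 1.03, Gstm2 1.17 and 0.48, and Gstm5 0.77 and 0.83, so 3 of the 4 tested members of the mu class were higher on both arrays. Gstp1, of the pi class, had 0.62 and 0.90, and Gstt3, of the theta class, 0.90 and 1.64. The microsomal Mgst1 had 0.25 and 1.67. Their adjusted p-values ran from 0.143 for Gstm5 to 0.254 for Mgst1, so none was called after loess. Under median centring limma called 8 of the 16 as higher, against 3453 of all 18064 tested genes. The 8 included Gstm1 (adjusted p 0.0207), Gstm2 (0.0322), Gstm5 (0.0210), Gstp1 (0.0199) and Gstt3 (0.0231). The Gstm1 and Gstm2 probes have 31 of 60 bases in common at their best alignment without gaps, with a shift between them allowed. That was the most of any pair of these probes, and whether each probe also reads the RNA of the other gene was not tested. Glrx, a glutaredoxin that removes glutathione from proteins, had 0.72 and 0.73 (adjusted p 0.152, and 0.0222 under median centring).

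The lowest values of the wider list were those of Gsta1 and Gsta2, which belong to the alpha class like Gsta4. Gsta1 read 12.04 and 10.63 in knockdown cells and 12.95 and 14.36 in control cells, and Gsta2 read 11.47 and 10.87 in knockdown cells and 12.19 and 13.96 in control cells. Their log2 ratios were -0.91 and -3.74 for Gsta1 and -0.72 and -3.09 for Gsta2, with means of -2.32 ± 2.00 (adjusted p 0.204) and -1.91 ± 1.68 (adjusted p 0.209). Array 2 set these sizes: without it Gsta1 is at -0.91 and Gsta2 at -0.72. Their probes have 23 of 60 bases in common when aligned in the same way, within the range of 15 to 31 over all pairs of transferase probes. Whether each probe also reads the RNA of the other gene was not tested. Gsta3, which was dim and not well above background in control cells on array 1, had 0.80 and -0.15. Gsto1, of the omega class, had -0.47 and -0.92 (adjusted p 0.164), a mean of -0.69, but under median centring the arrays had opposite signs and the mean was -0.24.

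The 11 genes of thioredoxin and the peroxiredoxins had a median of -0.02. Txn1, thioredoxin, had 0.02 and -0.08, and Prdx1, an abundant peroxidase that thioredoxin reduces, 0.03 and -0.12; both were above 0 under median centring, at 0.54 and 0.44. The largest ratio of the group was that of Txnip, which binds and inhibits thioredoxin and also responds to glucose. It had levels of 13.11 and 13.90 in knockdown cells, against 11.93 and 11.64 in control cells, and log2 ratios of 1.18 and 2.26, a mean of 1.72 ± 0.76 or 3.30-fold higher, with an adjusted p of 0.158. The knockdown sample was the higher on each array. Its other tested probe had a smaller mean of 1.02, and median centring called the gene as higher (2.01, adjusted p 0.0233).

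Genes of carbonyl and drug detoxification had the highest group median, 0.39. On both arrays 7 of 10 were higher, against 40.6% of all tested genes, and 3 were lower, against 29.4%. Under median centring all 10 were higher on both arrays, against 65.5% of all genes. Cbr1, a carbonyl reductase, had log2 ratios of 0.62 and 0.76 (adjusted p 0.153, and 0.0224 under median centring). The 7 genes of quinone, heme and iron handling had a median of 0.25 and the 6 genes of NADPH supply -0.09, which median centring put at 0.26. G6pdx, the entry enzyme of the pentose phosphate pathway, had -0.31 and -0.04 (adjusted p 0.424), and 0.23 under median centring.

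**Figure D5:**
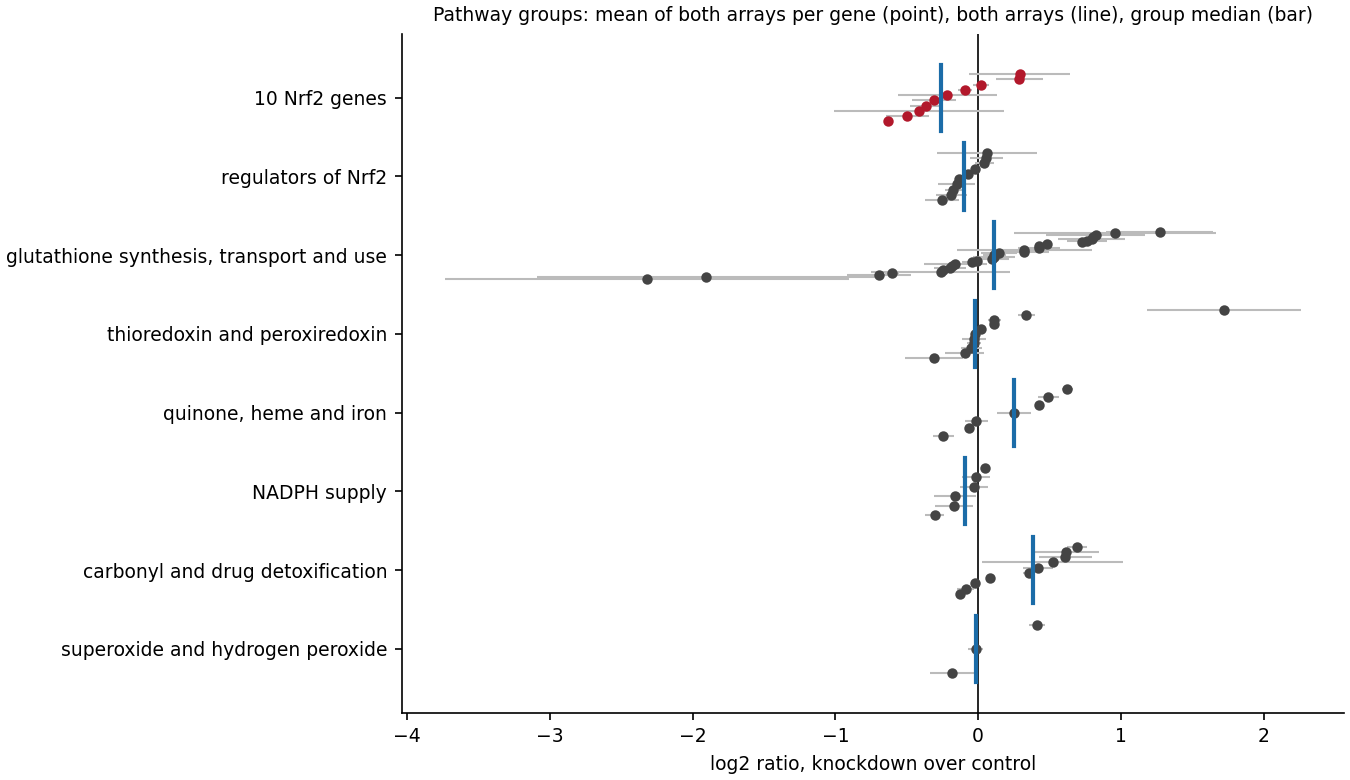
Log2 ratio of knockdown over control (x axis) of the 10 genes (top, red) and of 7 groups of further pathway genes. Points are means over both arrays, thin lines join the 2 arrays, and blue bars are group medians, from -0.26 for the 10 genes to 0.39 for carbonyl and drug detoxification; under median centring all of these medians lie above 0.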

How the data were processed

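Per the file headers and the submitters' processing notes, spots were quantified by Agilent Feature Extraction (version 9.5.3.1), and the spot mean and local background intensity of each colour were deposited without background subtraction. Feature Extraction also wrote background-subtracted, dye-normalized intensity values and a log10 ratio of Cy5 over Cy3, per the file headers. The value table that the authors deposited held log2 ratios equal to that ratio within 0.001 for 100% of single-spot probes with a value; its median was 0 on both arrays, and why 1165 and 2004 values were blank stays unknown.

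Here signals were corrected with normexp (offset 50) and normalized by loess (span 0.3) in limma 3.58.1 under R 4.3.3. Control spots had weight 0 and were left out, as were 154 and 237 outlier spots; spots of 1 probe were averaged. The test took in probes that each array found well above background in 1 or both of its channels. The log2 ratios were tested against 0 with lmFit and eBayes, two-sided, with Benjamini-Hochberg adjustment over 27006 probes and 1 residual degree of freedom. The prior variance that eBayes took from all tested probes had 2.78 degrees of freedom and an SD of 0.138. It thus weighed more in each p-value and interval than the probe's own 2 arrays. The code was tested on simulated data. Each gene was counted by its brightest probe. Levels are log2 values per channel after loess and Aquantile. An exact sign-flip test of 2 arrays cannot pass 0.05, and the number of arrays limits the precision. Slide and array cannot be told apart.

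Of the probes, 23374 were named through their accession in RefSeq (GRCm38.p6), 6735 by current symbol and 2920 by synonym; for the other 8145 the array's own name was used. The 10 genes and the lists were chosen with earlier results of these data known. Named with values were the 10 genes, Mybbp1a, the 12 genes of the wider list with the largest mean ratio of 1 sign on both arrays, and Bach1, Slc7a11, Txn1, Prdx1, Sqstm1 and G6pdx; Slc3a2, Gss and Gsta3 were named after their values were seen.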

Additional observations from a re-analysis of the deposited data

How the results depend on the processing

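Median centring moved most values: it called 4482 probes where loess called 0, put the median of the 10 genes at 0.15 with 4 higher and 1 lower on both arrays, and put the wider list of 74 at 0.39 with 60 higher and 5 lower, against 65.5% and 12.1% of all genes. It turned Keap1 to 0.22, Txnrd1 to 0.27, Srxn1 to 0.0781, Bach1 to 0.20, Txn1 to 0.54, Prdx1 to 0.44 and G6pdx to 0.23. All other settings called 0 probes. The wider list's median of 0.00447 stayed near 0 elsewhere: -0.0016 with a normexp offset of 16, -0.0139 with Feature Extraction's processed signals, 0.0141 with the deposited table, 0.0335 with no filter on dim probes and -0.0048 with means over probes. The count of members higher on both arrays was 2 with the deposited table, which lacked 7 of the 28 named genes, and 2 with means over probes. Sqstm1 was -0.10 with both the processed signals and the deposited table. The cause of these shifts was not tested.

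On 1 array at a time, the members' median ran from -0.47 to -0.10, those higher from 2 to 4 and those lower from 6 to 8; the wider list's median ran from 0.0254 to 0.0334. Array 1 alone and array 2 alone gave opposite signs for Nfe2l2 (-0.0616 and 0.644), Gclc (0.0743 and -0.0354), Txnrd1 (0.132 and -0.564), Gsta4 (0.179 and -1.01), Txn1 (0.0173 and -0.0765), Prdx1 (0.0292 and -0.122) and Sqstm1 (-0.0598 and 0.174). The mean of Gclm kept its sign under all 8 settings that used both arrays, from -0.69 to -0.38. So did the means of Nqo1, from -0.50 to -0.19, and Gsr, from -0.46 to -0.06. Not all of these settings were separate checks. Changing the filter on dim probes or fitting only the brightest probes left these means the same. The deposited table repeated the values of the processed signals for these genes. Gclm and Nqo1 were each read by 1 probe, so averaging over probes did not move them either. Under median centring, however, the arrays had opposite signs for Nqo1 (0.02 and -0.40) and for the brightest Gsr probe (0.09 and -0.22). Each array set 1 knockdown sample against 1 control sample, so the test of the log2 ratios against 0 already used this pairing.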

Other observations

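Values of iron, heme and superoxide genes outside the 10 are given here for genes named after their values were seen, none of which passed the limma test after loess. Fth1, the ferritin heavy chain that stores iron, had log2 ratios of 0.66 and 0.59 (adjusted p 0.153), whereas Ftl1, the light chain, had -0.17 and -0.32 (adjusted p 0.244) and was above 0 under median centring. Blvrb, a biliverdin reductase, had 0.57 and 0.42, and Hmox2, the constitutive heme oxygenase, 0.45 and 0.40. Blvra, another biliverdin reductase, had -0.07 and -0.06, and Nqo2, a quinone reductase, -0.09 and 0.07. Sod1, the cytosolic superoxide dismutase, had 0.47 and 0.36 by its brightest probe, but its 2 other tested probes had means of 0.02 and 0.04, while Sod2, its mitochondrial counterpart, had -0.07 and 0.04.

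Gsta4 was 1 of 169 tested probes printed 10 times on each array. Over these probes the median SD between spots was 0.06 (array 1) and 0.04 (array 2), and the gap between the arrays a median of 0.18. The gap of Gsta4, 1.19, was the 9th widest of the 169, and the widest was 2.90.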
